A study of Mus musculus with 2 samples.

Results

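The short genomic regions described here are 3733 array probes that the array design names by a position in the mouse genome and a strand, not by a gene. They were chosen from 55681 non-control probes, 16181 of which carry such a region name, by 2 criteria: the named region had to be shorter than 5000 bases, and the processed signal had to lie below the array's 75th percentile on at least 1 of the 2 arrays. Of the 3942 region probes under 5000 bases, 209 were at or above that level on both arrays and stayed out. The choice therefore used length and signal level, and the detection shares below partly follow from it. The 3733 probes belong to 1480 region names, and each was printed as 1 spot. The regions run from 61 to 4970 bases with a median over probes of 659 bases, and 2368 probes (63.4%) belong to regions under 1000 bases.

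Mammalian genomes are transcribed in many places outside protein-coding genes. Some of these transcripts are long noncoding RNAs, which are often spliced like messenger RNAs, are usually present at low levels and tend to differ between cell types more than coding transcripts do. In myeloid cells a few are known to act in differentiation and in inflammatory responses, but most positions from which such RNA has been inferred have no known function. The sources used here do not give the genome build behind the region names, and neither a genome nor the probe sequences were used. Whether each region lies between genes was therefore not checked, positions are printed as the array names them, and no sequence is shown.

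Bone marrow cells of C57BL/6 mice had been grown over 4 days with GM-CSF at 40 ng/ml, a cytokine that drives granulocyte and macrophage production, and 5% FBS (fetal bovine serum). One culture also received 40 ng/ml IL-6, a cytokine of inflammation that signals through STAT3, and the other did not. The labels call the cells of both cultures myeloid-derived suppressor cells, a mixed population of immature myeloid cells that restrains T cells, and they mention no sort. The question was how the transcripts differ when IL-6 is present. Each culture's total RNA was labelled with Cy3 and hybridised to 1 array, and both arrays lay on 1 slide and were read in 1 scan. With 1 array a group there is no replicate check and no test, so precision is limited by the number of arrays throughout. In bulk RNA, fewer cells of a type and less RNA per cell cannot be told apart.

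The 75th percentile of the processed signal was 486.2 on the array with IL-6 and 549.7 on the array without. Signals are printed after both arrays were scaled to the geometric mean of these values, 517.0, and a log2 ratio is the array with IL-6 minus the array without. A probe is called measured on an array when the extraction software marked it well above background. All 10 myeloid markers listed were measured on both arrays, with scaled signals from 5231 to 470325 with IL-6 and from 5496 to 427030 without. S100a9, a calcium-binding protein of neutrophils and monocytes, had 470325 and 427030. The 3 T cell markers were measured on both arrays with summed signals of 1772 and 1817, and the 3 B cell markers with 5749 and 5798. Hba-a1, a haemoglobin chain of erythroid cells, had 164 with IL-6 and 102 without. Of 4 stromal markers, Col1a1, Col1a2 and Sparc were measured on both arrays and Cxcl12 was not well above background. Sparc had 100.4 with IL-6 and 36.0 without and Col1a2 had 76.7 and 53.2, while Col1a1 had 68.5 and 75.1. The 4 signals summed to 250.2 and 168, and the part of such cells in the region values was not tested.

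Most of the short-region probes gave no signal well above background. On the array with IL-6, 1397 of the 3733 probes (37.4%) were measured, and 1473 (39.5%) were measured on the array without it. Over all non-control probes the shares were 57.9% and 59.1%. The signal criterion took bright probes out of the first figures but not the second, so the gap is a description of the choice. Among probes that met the same signal criterion, 41.8% and 43.5% of those for regions of 5000 bases or more were measured, and 47.3% and 48.7% of those not named by a region. Both arrays measured 1338 short-region probes (35.8%), and neither measured 2201 (59.0%). The array with IL-6 alone measured 59 (1.58%), and the array without it alone measured 135 (3.62%). Over all 55669 non-control probes kept, these counts were 743 and 1407, so the whole array leaned the same way. For longer regions under the same signal criterion they were 243 and 442 of 11414. On both arrays 1116 probes (29.9%) carried a surrogate value that the extraction software sets in place of a signal too dim to use. Such values have no order and set no place in the lists of probes below. They did enter the alternative settings of quantile normalization, which ranks all spots, and of no filter on dim probes.

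**Figure D1:**
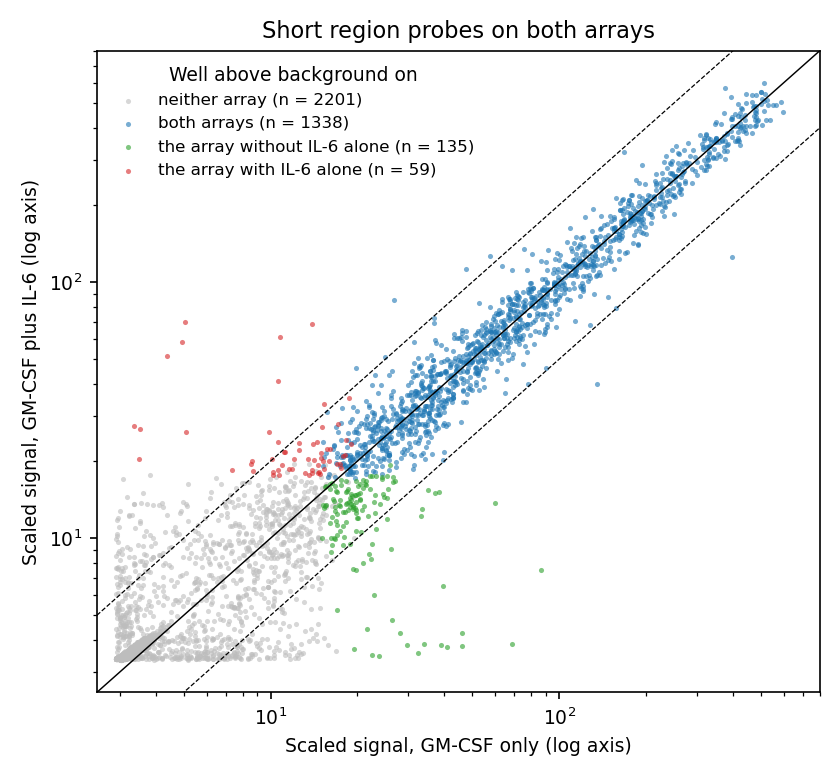
Scaled signal of each short-region probe with IL-6 (vertical) against without IL-6 (horizontal), both on log axes, coloured by the array or arrays that measured it. The 1338 probes measured on both arrays lie along the diagonal, and only 7 of them are 2-fold or more from it.

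Counted by region, 828 of 1480 (55.9%) had at least 1 probe measured on both arrays and 652 had none. Most short regions carry 3 probes on this design. Of the regions with 3 probes among those chosen, 409 had no probe measured on both arrays, 301 had 1, 132 had 2 and 155 had all 3. A region thus often gave a signal with 1 of its probes and not with the others. Both strands were alike in detection, with 36.0% of 1885 forward probes and 35.7% of 1848 reverse probes measured on both arrays. No short region was printed for both strands, whereas 1067 of 2015 positions of 5000 bases or more were, so strand partners cannot be compared here.

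Length went with detection only loosely. The share measured on both arrays was 33.5% of 2368 probes for regions under 1000 bases, 40.9% of 555 from 1000 to 1999 bases and 39.6% of 366 from 2000 to 2999 bases. It was 41.6% of 293 from 3000 to 3999 bases and 33.1% of 151 from 4000 to 4999 bases. Beyond the length limit, under the same signal criterion, it was 41.0% from 5000 to 9999 bases, 40.0% from 10000 to 49999 and 37.1% above. The shortest and the longest class of short regions had the lowest shares, and the order did not run one way. Nearest inside the length limit were regions of 4970 and 4928 bases, whose probes among those chosen were not well above background on either array. A further probe of the 4970-base region was too bright for the choice, with 736 with IL-6 and 643 without. Nearest outside were regions of 5015 and 5025 bases. Neither probe of the former was well above background, and of the 5 probes of the latter 3 were measured on both arrays, with 25.6 and 33.0, 21.5 and 43.2, and 37.6 and 41.0, and 1 was measured only without IL-6.

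**Figure D2:**
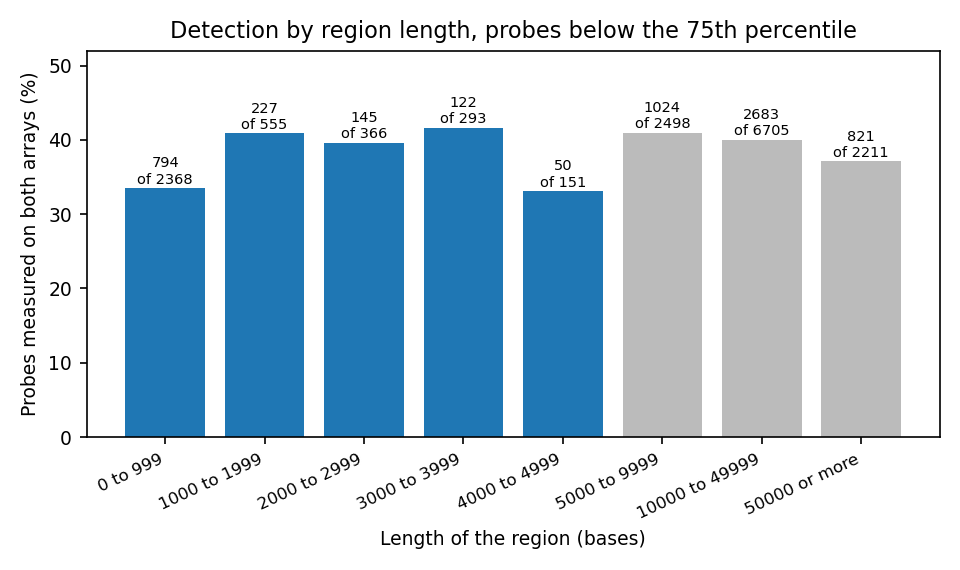
Share of probes measured on both arrays (percent, vertical axis from 0) by length of the named region, for short regions and for longer regions under the same signal criterion. Shares lie between 33.1% and 41.6% in every class, with no steady trend.

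Short regions had nearly the same signal in both cultures. The 1338 probes measured on both arrays had a median log2 ratio of 0.01, with quartiles of -0.15 and 0.17, and 696 were above 0 and 642 below. The median over all 31516 probes measured on both arrays was -0.01. It was 0.04 for longer regions under the same signal criterion and -0.01 for dim probes not named by a region. The SD across short-region probes was 0.29 on the log2 scale. Signals on both arrays were within 1.5-fold of each other for 1279 probes (95.6%).

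The spread between spots of one probe gives the only error these data hold. It was taken from 266 probes printed at least 5 times on each array, and as an SD of the log2 ratio it fell from 0.34 at the dimmest signals to 0.07 around the 75th percentile. It covers spot error alone, not labelling, hybridisation or culture, and its dimmest class rests on 4 probes. Of the 1338 probes, 227 (17.0%) had a log2 ratio more than 2 such SDs from 0, and the share among equally chosen probes not named by a region was 17.8%. Dim members dominated, with 687 of the 1338 (51.3%) in the lowest 25% by signal of all measured probes, below a scaled signal of 67.8.

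**Figure D3:**
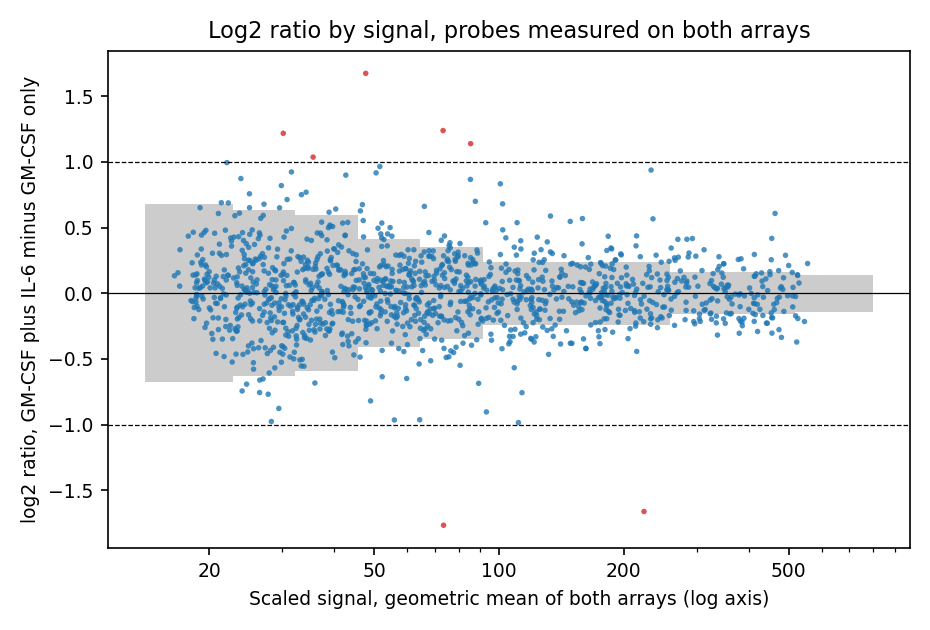
Log2 ratio (with IL-6 minus without) against mean scaled signal (log axis) for the short-region probes measured on both arrays, with a band of 2 technical SDs on each side of 0 and lines at 2-fold. The 7 probes beyond 2-fold are spread over the dim and middle signals, and none lies in the classes from a mean signal of 258 upward.

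Few short-region probes differed by 2-fold. With IL-6, 5 of 1338 (0.374%) were at least 2-fold higher, against a percent called of 0.301 over all probes measured on both arrays, and 2 (0.149%) were at least 2-fold lower, against 0.165. At 1.5-fold, 38 (2.84%) were higher and 21 (1.57%) lower, against 1.46 and 0.885. Dim probes not named by a region gave 2.16% and 1.4% at 1.5-fold and 0.471% and 0.279% at 2-fold. Longer regions gave 3.05% and 1.68% at 1.5-fold and 0.508% and 0.331% at 2-fold. The 2-fold shares of the short regions were near the background, and their 1.5-fold shares lay above it, between those of dim probes not named by a region and those of longer regions. Above the lowest 25% by signal, 2 of 651 were 2-fold higher and 2 were 2-fold lower. Under the same signal limits, 3 and 1 of 2170 probes of longer regions were, and 12 and 9 of 7690 probes not named by a region. At 1.5-fold the counts were 9 and 6 of 651, 18 and 7 of 2170, and 56 and 46 of 7690. The short-region shares in this brighter part were thus the higher ones, on few probes.

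The largest difference upward was at chr3:26982754-26983352, reverse strand, 598 bases long. Its probe had a scaled signal of 85.3 with IL-6 and 26.7 without, a log2 ratio of 1.67 with a technical SD of 0.21, and sat at row 190, column 36. The other 2 probes of this region were not well above background on either array. The difference thus rests on 1 spot an array.

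A probe for chr16:90116006-90119297, reverse strand, 3291 bases, had 113 with IL-6 and 47.8 without (log2 ratio 1.24, technical SD 0.18; row 92, column 20). A second probe of that region had 35.6 and 43.0, a log2 ratio of -0.27 with a technical SD of 0.30. The remaining one was measured only without IL-6. The other probes of this region therefore did not share the rise, and the ratio of the second was smaller in size than its technical SD.

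At chr7:137669440-137672712, forward strand, 3272 bases, 1 probe had 46.1 with IL-6 and 19.8 without, a log2 ratio of 1.22 with a technical SD of 0.32 (row 299, column 59). The higher value is itself within the lowest 25% by signal, and the region's other 2 probes were measured on neither array. For chr5:92562352-92562839, forward strand, 487 bases, 1 probe had 127 and 57.6, a log2 ratio of 1.14 with a technical SD of 0.18 (row 86, column 157). Its other 2 probes were also measured on neither array. At chr19:14916280-14916548, forward strand, 268 bases, the probe at row 244, column 120 had 51.0 and 24.9, a log2 ratio of 1.04 with a technical SD of 0.30. A second probe of that region had 25.7 and 25.6, which is a log2 ratio of 0.01, and the remaining one was not well above background.

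Downward, the probe for chrX:11690182-11690581, reverse strand, 399 bases, had 126 with IL-6 and 398 without, a log2 ratio of -1.66 with a technical SD of 0.12 (row 300, column 95). The other probe of the region had 75.1 and 66.6, a log2 ratio of 0.17, so the region's probes again disagree. The other lower probe belongs to a forward-strand region of 3527 bases on chromosome 18. It had 39.9 with IL-6 and 136 without, a log2 ratio of -1.77 with a technical SD of 0.18, at row 26, column 160. Its companion probes had log2 ratios of -0.05 and 0.02.

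**Figure D4:**
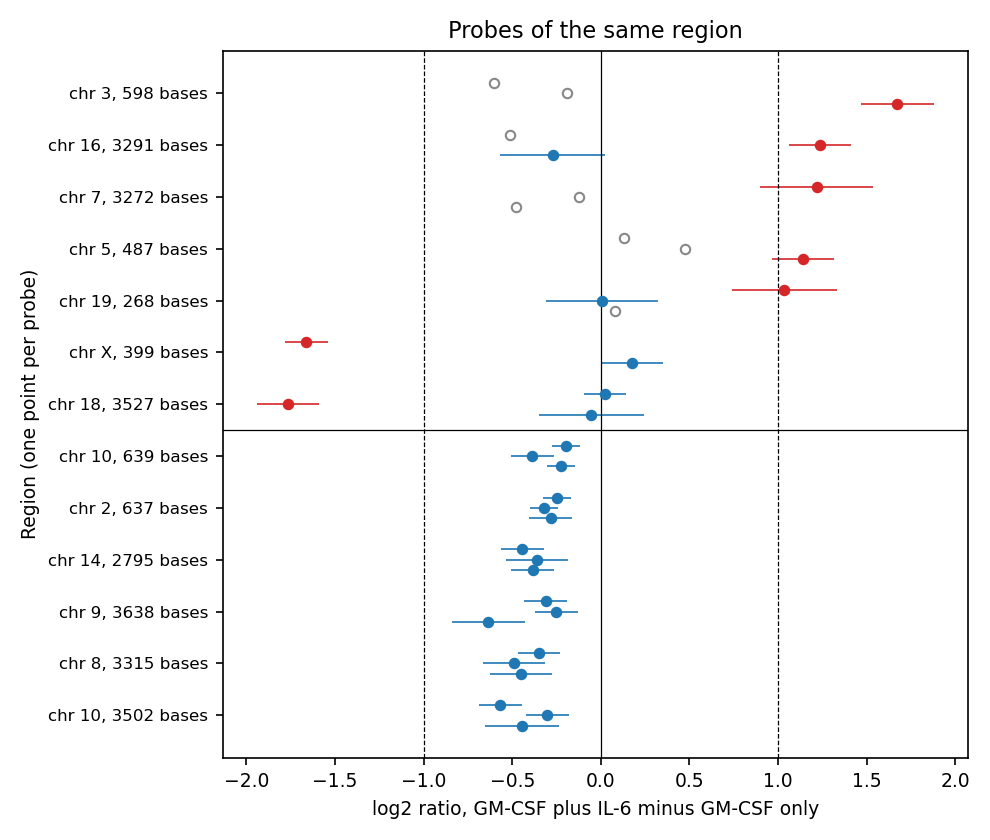
Log2 ratio (with IL-6 minus without) of every probe of the regions with a 2-fold probe and of the 6 regions whose 3 probes were each lower by more than 2 technical SDs, by region, with bars of 1 technical SD for probes measured on both arrays. In each region with a 2-fold probe, no other probe reaches 2-fold.

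Below 2-fold and above the lowest 25% by signal, the next largest differences upward were smaller in size and as uneven among probes. At chr1:192484781-192485014, reverse strand, 1 probe had 322 with IL-6 and 168 without, a log2 ratio of 0.94 with a technical SD of 0.12. A second probe there had 41.1 and 37.2, a log2 ratio of 0.14, and the remaining one was measured on neither array. At chr1:167515313-167516122, forward strand, 1 probe had 115 and 63.2, a log2 ratio of 0.87, with both other probes measured on neither array. These regions had 1 probe each that set them apart.

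At chrX:121004130-121007360, reverse strand, the log2 ratio was 0.83 at 135 and 75.5, and the companion probe had 282 and 309, a log2 ratio of -0.13. At chr9:58197113-58200614, forward strand, 1 probe was higher with a log2 ratio of 0.70 and another was lower with -0.88, both measured on both arrays. This region entered the largest differences in both directions. At chr4:155560296-155564642, forward strand, the log2 ratio was 0.68 for 1 probe and 0.04 for another. At chr15:102932714-102935033, forward strand, 1 probe had 572 and 376, a log2 ratio of 0.61, while its companions were measured on neither array.

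Regions in this list with 3 measured probes, all above 0, were those on chromosomes 14 and 5. At chr14:70483555-70484159, forward strand, 604 bases, the probes had 163 and 109, 54.7 and 40.7, and 191 and 163 with and without IL-6. The log2 ratios were 0.59, 0.43 and 0.23, and their mean of 0.41 was the highest of any short region with 3 measured probes. At chr5:136371885-136372424, reverse strand, 539 bases, they were 0.57, 0.31 and 0.15, the first from signals of 194 and 131. In both regions the smallest of the 3 lay within 2 technical SDs of 0.

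Other large differences below 2-fold came from dimmer probes. Upward, chr3:88028201-88031439, forward strand, had 31.2 with IL-6 and 15.6 without, a log2 ratio of 0.99 with a technical SD of 0.34, and its other probes were measured on neither array. The probe for chr7:119780610-119782250, forward strand, had 72.1 and 37.0, a log2 ratio of 0.96, and was the only probe of its region. At chr15:60732209-60732822, reverse strand, the log2 ratio was 0.92 and another probe was measured only without IL-6. At chr17:84359207-84360270, reverse strand, it was also 0.92, in a crowded tile (a part of the array where many probes differ, defined with the array place below).

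Downward, chr10:59382822-59383642, reverse strand, had 1 probe with 79.2 with IL-6 and 157 without, a log2 ratio of -0.99, and another with -0.08. At chr6:42659063-42660071, reverse strand, 1 probe had 68.2 and 128, a log2 ratio of -0.90, and the others were measured on neither array. At chr12:52950465-52950990, reverse strand, both measured probes were lower, with log2 ratios of -0.69 and -0.39. At chr1:133839368-133839762, forward strand, all 3 were below 0, with -0.76, -0.20 and -0.06, and the first had 87.4 and 148 at row 7, column 5, in a crowded tile.

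Among dimmer probes downward, chr6:6499224-6499832, reverse strand, had 20.1 with IL-6 and 39.7 without, a log2 ratio of -0.98, with its other probes measured on neither array. At chr12:111829967-111830904, forward strand, 1 probe had -0.97 and the other probes had 0.04 and -0.09. At chr9:88338621-88338923, forward strand, the log2 ratios were -0.82, -0.13 and -0.12. The probe for chr9:55921147-55921563, forward strand, had 21.3 and 36.3, a log2 ratio of -0.77. In each of the regions with several measured probes, 1 probe stood far from the others.

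Short-region probes near the 75th percentile differed by little, although some ratios exceeded spot error. The probe with the highest mean signal, for chr15:85298353-85298992, forward strand, had 601 with IL-6 and 513.5 without, a log2 ratio of 0.23. The probe for chr3:60292527-60292880, reverse strand, had 506 and 588, a log2 ratio of -0.22. Both are more than 2 technical SDs (0.07) from 0. That for chr14:26842169-26845456, forward strand, had 544 and 515, a log2 ratio of 0.08. The chr14 probe is the nearest inside the signal limit of 517.0, followed by chr5:31883451-31884082, forward strand, with 515.0 and 524, and by the chr15 probe. Nearest outside it were chr10:94870971-94871658, reverse strand, with 577 and 517.2, chr2:181663381-181664097, forward strand, with 642 and 519, and chr5:121778090-121779622, forward strand, with 520.0 and 540. The log2 ratios of the probes outside were 0.16, 0.31 and -0.05.

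Among the regions with several measured probes, 4 are given in full. At chr1:108664564-108665243, reverse strand, 679 bases, the probes had 285 and 326, 220.3 and 264, and 270.3 and 296 with and without IL-6, and log2 ratios of -0.19, -0.26 and -0.13. At chr4:3437474-3438228, reverse strand, 754 bases, the log2 ratios were -0.01, -0.20 and -0.18. At chr3:51890691-51891781, reverse strand, 1090 bases, they were -0.05, -0.01 and -0.13, and at chr4:149445201-149445902, forward strand, 701 bases, they were -0.05, 0.08 and -0.15. No probe of these regions differed by 1.5-fold.

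Probes of one region gave a second look at each difference, although they share the same RNA and arrays and are not replicates. The first pair of measured probes by row was taken from each of 355 regions, and the log2 ratios had a Pearson r of 0.16 and a Spearman rho of 0.26, and 213 pairs (60%) had the same sign. Above the lowest 25% by signal, 147 pairs had an r of 0.26 and a rho of 0.41. Longer regions gave an r of 0.10 over 1172 pairs. The SD of the difference within a pair was 0.37 over the 355 short-region pairs, and spot error alone gives a median SD of 0.32. For the 147 pairs above the lowest 25% by signal these were 0.30 and 0.17, so spot error was the smaller part there. Taking every pair within a region instead, 665 pairs had an r of 0.20 and 401 (60.3%) had the same sign. Among these 665 pairs, 0 had both probes 1.5-fold higher and 0 had both 1.5-fold lower.

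Averaged over the measured probes, none of the 355 regions with at least 2 of them differed by 2-fold, and 2 were at least 1.5-fold lower, the chromosome X region and the chromosome 18 region described above. The region means ran from -0.74, at chrX:11690182-11690581, to 0.54, at chr1:192484781-192485014. Both ends were set by 1 probe.

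Of the 155 regions with 3 measured probes, 24 had all 3 log2 ratios above 0, 41 had all 3 below and 90 were mixed. That is 41.9% on one side, against 33.1% of 338 longer regions with exactly 3 measured probes. Longer regions can carry more than 3 probes and short ones do not, so the sets differ in how fully a region was measured. In 6 regions (3.87%) every probe was lower by more than 2 technical SDs, and in 0 every probe was higher by that much. Among longer regions the shares were 0.888% and 0.296%. These 6 regions were chosen after their values were seen, and their differences are small, with means from -0.44 to -0.27.

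The lowest mean of the 6 was at chr10:66640530-66644032, forward strand, 3502 bases. Its probes had 89.4 with IL-6 and 133 without, 104 and 128, and 50.6 and 68.8, with log2 ratios of -0.57, -0.30 and -0.44 and a mean of -0.44 (technical SD 0.09). The spots lie far apart, at rows 257, 126 and 49. At chr8:42462791-42466106, reverse strand, 3315 bases, the probes had 142 and 180.5, 66.5 and 91.0, and 63.0 and 88.4, with a mean log2 ratio of -0.43. Their spots lie at row 373, column 61, at row 295, column 23 and at row 297, column 39, so the last ones are near each other. All 3 probes of both regions were lower with IL-6.

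At chr9:13349094-13352732, forward strand, 3638 bases, the log2 ratios were -0.25, -0.64 and -0.31. At chr14:73746324-73749119, reverse strand, 2795 bases, they were -0.38, -0.36 and -0.44, from signals of 153 and 200.3, 64.3 and 82.4, and 184 and 251. These were the most even of the 4 larger means. At chr2:48826955-48827592, forward strand, 637 bases, the log2 ratios were -0.25, -0.28 and -0.32, the first from signals of 355 and 421. At chr10:6497224-6497863, reverse strand, 639 bases, they were -0.23, -0.20 and -0.39, and the probe with -0.39 lay in a crowded tile. That probe sat at row 66, column 149, near the probe with -0.20 at row 67, column 125.

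Probes measured on 1 array only have a bound where the dimmer signal was raised. It was raised, where it was lower, to the smallest signal marked well above background on its array. That was 16.1 with IL-6 and 14.8 without, and the fold of the signals is then at least the value given. The probe for chr8:90048940-90049461, forward strand, needed no raising. Its 2.18-fold is the plain ratio of 33.4 with IL-6 and 15.3 without. Of the 59 probes measured only with IL-6, 7 (11.9%) reached 2-fold, against 14.4 percent called over all probes measured only there. Of the 135 measured only without IL-6, 15 (11.1%) did, against 9.95. The shares were near the background in both directions.

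With IL-6 alone, the largest was chr15:97674015-97674423, reverse strand, with 70.0 against 5.05, at least 4.74-fold higher (row 6, column 114). It was followed by chr10:8662761-8665101, reverse strand, at least 4.64-fold from 68.6 against 13.9, and chr8:49911596-49912196, reverse strand, at least 4.12-fold from 60.9 against 10.8. Then came chr6:86448774-86450531, reverse strand, at least 3.94-fold, and chr4:33369310-33369871, reverse strand, at least 3.49-fold. The one at chr11:79551860-79552221, reverse strand, was at least 2.79-fold higher with 41.2 against 10.6. Another probe of that region was bright on both arrays, with 1158 and 1058, a log2 ratio of 0.13.

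Without IL-6 alone, the largest was chr6:47959825-47960502, reverse strand, with 7.49 with IL-6 and 86.3 without, at least 5.36-fold lower with IL-6 (row 12, column 1). At chr1:23340097-23340552, forward strand, it was at least 4.27-fold lower from 3.88 and 68.8 (row 23, column 159). At chr6:47967403-47968278, reverse strand, it was at least 3.71-fold lower, while another probe of that region had 67.5 and 64.0, a log2 ratio of 0.08. The probe for chr16:40467818-40468474, forward strand, was at least 2.87-fold lower, and that for chr3:55378842-55381195, forward strand, at least 2.53-fold.

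At chr15:12126433-12126745, reverse strand, 312 bases, 1 probe was at least 2.86-fold lower from 3.81 and 46.1, and a second was also measured only without IL-6, with 4.27 and 28.0. Both spots lie in the corner of the array described next, at row 38, column 158 and at row 1, column 157. The third probe of the region was not well above background. Over all 29 probes past 2-fold, measured on both arrays or on 1, the 29 regions held 57 other probes. Of these 11 were measured on both arrays, with log2 ratios from -0.42 to 0.20, 2 only without IL-6 and 44 on neither array, and 0 of the measured 11 were 2-fold apart.

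Array place went with several of these differences. The arrays hold 384 rows and 164 columns of spots, divided here into 336 tiles of 16 rows by 12 columns. A tile is called crowded when at least 4 probes in it that are not region-named, and are measured on at least 1 array, differ by 2-fold, so that the short regions do not choose the tiles. There were 10 crowded tiles, 8 of them within rows 1 to 48, and they held 86 of the 3733 short-region probes (2.30%). Of the 15 probes measured only without IL-6 and past 2-fold, 10 lay in crowded tiles. Of the same 15, 13 lay in the first 48 rows or the last 20 columns, which hold 864 of the 3733.

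Among the probes measured only with IL-6 and past 2-fold, 1 of 7 was in a crowded tile, the one at chr4:33369310-33369871. Of the same 7, 4 lay in the first 48 rows or the last 20 columns. Of the 2-fold probes measured on both arrays, 0 of 5 higher ones were in crowded tiles and 1 of 2 lower ones was, the one on chromosome 18. The SD of the log2 ratio was 0.54 over 24 short-region probes in crowded tiles and 0.28 over 1314 outside them. Outside crowded tiles, 5 of the 15 probes measured only without IL-6 remained past 2-fold. The part of array place in these differences was not tested beyond these counts.

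**Figure D5:**
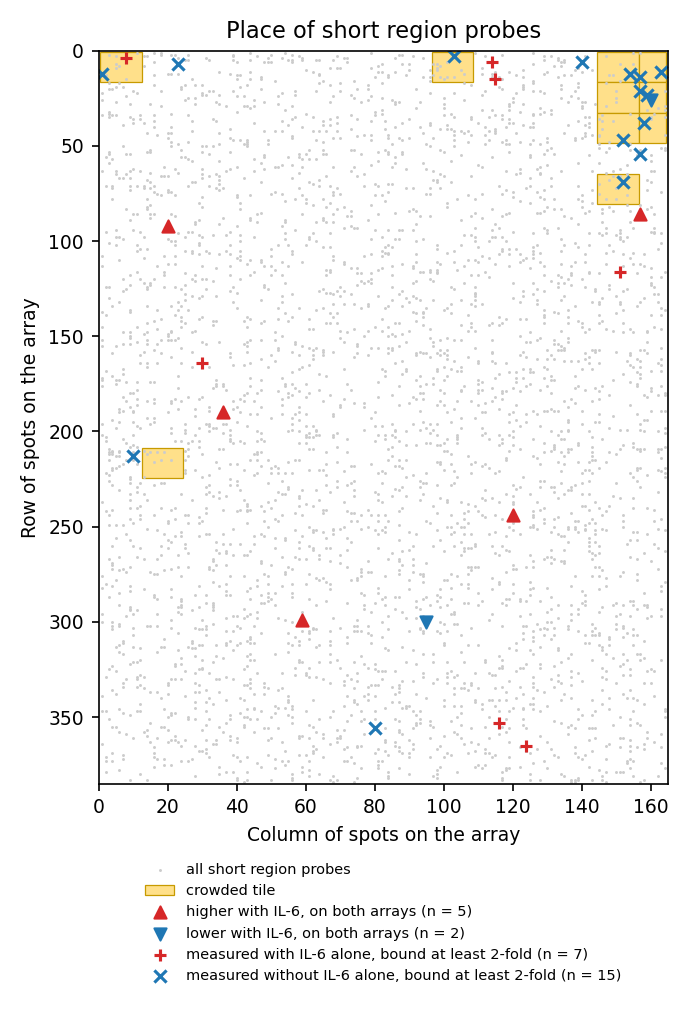
Position of every short-region probe on the array (row against column, in spots), with crowded tiles shaded and the probes past 2-fold marked by direction and by the array that measured them. Of the 15 probes measured only without IL-6, 13 lie in the first 48 rows or the last 20 columns, as do 4 of the 7 measured only with IL-6. Those higher on both arrays lie elsewhere except 1 at column 157.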

How the data were processed

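Total RNA of 2 cultures was hybridised to 1 one-colour (Cy3) array each, per the labels. Spot intensities were extracted by the authors with Agilent Feature Extraction 10.7.1.1 on array design 028005, per the file headers. The authors' deposited matrix holds log2 values of 55821 probes that correlate with the arrays' own log2 signals at r = 0.99998 for the array without IL-6; both columns have a median of 5.10 and their sorted values differ by at most 0.00136. The sources used here do not name its software.

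The value used was log2 of the processed intensity minus the array's 75th percentile over 59305 non-control spots of 62976. Spots marked as outliers were left out (0 of the short-region probes), spots of a probe were averaged and 55669 probes remained. A probe was measured when at least 50% of its spots were well above background. Each group had 1 array, so no test was run and 2-fold was the size threshold. Neither array had a saturated spot. Part of the marker list is not reported here.

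The regions named were the 10 largest log2 ratios per direction, the same above the lowest 25% by signal, the 6 largest bounds per direction, the 6 brightest, 4 regions with several probes and the 3 nearest each limit; not all are printed. The members and lists were chosen with earlier results of these data known. Data were simulated for the comparison of GM-CSF plus IL-6 with GM-CSF only, from spot error alone and over 55669 probes. Among short-region probes still measured on both simulated arrays, 83 of 85 shifted by 1.5 (log2) were called at 2-fold. The same held for 69 of 69 shifted by 2.5 and for 1 of 1270 left unshifted. Shifted probes that were no longer measured on both arrays are not in these counts, so they do not give the full share found. Alternatives were quantile normalization, median centring, normexp (offset 50), the authors' matrix, outlier spots kept, other filters on dim probes, array place, both limits of the choice and, chosen after seeing the data, the mean over a region's probes. Tools were Python 3.11.15, numpy 2.4.6, pandas 2.3.3 and matplotlib 3.10.9, with limma 3.58.1 under R 4.3.3 for normexp.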

Additional observations from a re-analysis of the deposited data

How the results depend on the processing

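No paired analysis was possible because there was only 1 array for either culture. The counts past 2-fold (5 higher, 2 lower, 7 measured only with IL-6, 15 measured only without) were 5, 2, 7 and 15 under quantile normalization, median centring, the authors' matrix and outlier spots kept, and the median log2 ratio lay between 0.01 and 0.11 under every planned setting. Normexp gave 0, 1, 1 and 0. A looser background call gave 74, 61, 64 and 74, with 2357 and 2435 probes measured on the arrays with and without IL-6. No filter on dim probes gave 138 higher and 135 lower, surrogate values included, and the counts for 1 array were not run there. The shares over all probes were not computed under the alternatives. Whether these larger counts are particular to short regions therefore cannot be told. A stricter filter, which kept probes above the lowest 25% by signal, gave 2 higher and 2 lower. All 651 short-region probes it kept were measured on both arrays, so its counts of 0 and 0 for 1 array were fixed by the filter. Without crowded tiles and outermost spots 1 lower and 5 measured only without IL-6 remained. Centring each tile on the median log2 ratio of its probes not named by a region gave 6, 2, 7 and 13. Length under 2500 bases left 3 higher and 1 lower. The mean over a region's measured probes gave 0 higher, 0 lower and a median of -0.000665. Wider or narrower filters and choices change the number of probes counted; the cause of the normexp counts was not tested. All 7 probes past 2-fold on both arrays remained so under 5 settings, and 1 did under normexp, with log2 ratios there from -1.31 to 0.73. The 6 regions with 3 lower probes had means from -0.45 to -0.27 under the other scalings and from -0.22 to -0.15 under normexp. Signal over background limits the whole set, since 59.0% of the probes were not well above background on either array.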

Other observations

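Short regions near each other on a chromosome showed little in common where each had a probe measured on both arrays. There were 433 pairs of consecutive regions less than 10000 bases apart, 289 of them on the same strand. Of the 433, 146 had a probe measured on both arrays in each region, and 74 of these had region means of the same sign. Their Pearson r was 0.04 and Spearman rho 0.11. Probes measured on 1 array only do not enter these values. Left out in this way were chr6:47959825-47960502 and chr6:47967403-47968278, which lie near each other on the reverse strand. Each had a probe measured only without IL-6 and past 2-fold, both at row 12 in crowded tiles. The higher probe at chr5:92562352-92562839, forward strand, lies beside the reverse-strand region chr5:92563184-92566678, where 1 probe was measured only without IL-6, with 6.52 and 39.6, in a crowded tile at row 47, column 152. Another probe of that neighbour had 21.1 with IL-6 and 18.4 without.

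By chromosome, the share of short-region probes measured on both arrays ran from 27.4% of 226 on chromosome 13 to 43.7% of 87 on chromosome 19. The median log2 ratio ran from -0.11 over 54 probes on chromosome 9 to 0.13 over 38 probes on chromosome 19.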
